A study of Homo sapiens with 6 samples.

Results

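The 10 genes described here are components and targets of the YAP-TEAD transcription complex, taken by symbol from a deposited table of 59653 gene symbols. They comprise 5 components (YAP1, WWTR1, TEAD1, TEAD2 and TEAD4) and 5 targets (CCN1, CCN2, ANKRD1, AMOTL2 and LATS2). All 10 were present in the table and all 10 passed the filter on low counts that left 17592 genes for testing. The measurements are mRNA sequencing read counts from PA1, an established human ovarian teratocarcinoma cell line labelled wild type. Control libraries came from PA1 cells given a negative control siRNA, and the other group received siRNA against the transcription factor SOX2. The labels name 2 SOX2 siRNAs without saying whether they were combined. All cells stayed attached for 24 h after transfection and were then kept for 72 h on poly-HEMA, a coating that prevents attachment, so that both groups grew in suspension. No library of attached cells was analysed here, and the comparison is therefore between siRNAs and not between attached and unattached cells. Each group had 3 libraries, and nothing states that these came from separate cultures, so p-values measure the spread between these samples, which may be technical.

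YAP1 and its paralog WWTR1, whose protein is called TAZ, are co-activators that do not bind DNA themselves. They act through the TEAD proteins, which recognise short DNA elements. The Hippo kinases, including LATS1 and LATS2, phosphorylate YAP and TAZ and keep them out of the nucleus, and in many cell types loss of attachment raises this phosphorylation. The proteins' activity is thus set largely after translation, and mRNA counts measure the supply of the transcripts and not the activity of the proteins. Several targets feed back on the pathway: LATS2 is a kinase of it, and AMOTL2 is an angiomotin family protein that binds YAP.

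Total counts ranged from 25152313 to 32753184 per library, and 3 counts corresponded to 0.0909 to 0.120 CPM (the count scaled to the library size corrected for composition). Such floors cover counting error only, since PCR reads without molecular identifiers are not independent molecules. The targeted gene SOX2 stood at 245, 265 and 256 CPM in control replicates 1 to 3 and at 51.8, 54.9 and 50.6 CPM in SOX2 siRNA replicates 1 to 3, which is a log2 fold change of -2.28 (SE 0.0437, adjusted p = 5.97e-16 by the quasi-likelihood test of edgeR; all adjusted p-values are corrected over the tested genes). Of the 8 genes listed as markers of the line, POU5F1, LIN28A, LIN28B, SALL4 and, in control libraries, SOX2 were above 100 CPM in each library, while DPPA4 and L1TD1 lay below 4 CPM and TDGF1 had at most 3 counts in any library.

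Short sequence elements in the promoters are shown first because TEAD proteins bind DNA at short elements, in promoters or elsewhere. RefSeq promoters (build GRCh38.p14, 250 bases before to 50 bases after each start) were matched by symbol for 7 of the 10 genes. TEAD1, TEAD4 and CCN1 had no entry. The core letters of the TEAD element, GGAATG on either strand (CATTCC on the other), were found in 5 of the 10 promoters listed for these 7 genes, those of CCN2, ANKRD1, LATS2 and YAP1 and 1 of the 2 of AMOTL2. Of 35116 promoters of the same length, 14% held these letters at least once, 1.37% at least 2 times and 0.128% at least 3 times. The CCN2 promoter held them 3 times, with first bases at positions -169, -104 and -95, where -1 is the last base before the start. The ANKRD1 promoter held them 2 times, at -220 and -128. All these positions count from RefSeq starts, which can differ from the GENCODE 29 gene positions given below. The GENCODE 29 model of ANKRD1 (minus strand) starts at base 90921276. The copy at -128 (chr10:90921210-90921215) lies inside that model, and the copy at -220 lies before it. The AMOTL2 promoter held the reverse form once, at -69, and the YAP1 promoter held the forward form once, at -162. In LATS2 the letters began at base 10 after the RefSeq start. The GENCODE 29 model of LATS2 starts further downstream, at base 21061547, so the letters (chr13:21061572-21061577) lie before that start. A match is a description of the letters and shows no binding.

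The 250 bases before the RefSeq start are printed 5′ to 3′ on the gene's strand, with the TEAD letters in capitals. They are those of CCN2 (chr6:131951373-131951622, minus strand), ANKRD1 (chr10:90921088-90921337, minus strand) and AMOTL2 (chr3:134374448-134374697, minus strand). The AMOTL2 stretch lies inside the GENCODE 29 model of the gene (chr3:134355874-134375479), and part of the ANKRD1 stretch lies inside its model.
CCN2: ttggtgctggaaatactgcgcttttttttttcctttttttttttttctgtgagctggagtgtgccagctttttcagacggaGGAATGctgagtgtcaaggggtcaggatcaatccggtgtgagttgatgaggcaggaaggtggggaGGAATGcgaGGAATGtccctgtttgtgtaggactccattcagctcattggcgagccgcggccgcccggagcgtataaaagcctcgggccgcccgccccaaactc
ANKRD1: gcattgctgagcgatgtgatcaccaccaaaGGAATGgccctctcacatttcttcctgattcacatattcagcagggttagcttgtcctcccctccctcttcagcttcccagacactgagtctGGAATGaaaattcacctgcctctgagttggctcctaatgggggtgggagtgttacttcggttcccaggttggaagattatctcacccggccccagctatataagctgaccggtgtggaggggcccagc
AMOTL2: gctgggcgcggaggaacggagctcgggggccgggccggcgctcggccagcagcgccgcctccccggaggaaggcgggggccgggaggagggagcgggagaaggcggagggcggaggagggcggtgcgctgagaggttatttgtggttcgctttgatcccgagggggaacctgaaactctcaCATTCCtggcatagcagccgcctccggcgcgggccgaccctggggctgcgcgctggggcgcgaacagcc

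The core letters of the SOX element, ATTGTT or AACAAT on the other strand, were found in 10.1% of all promoters and in 1 of the 10, that of LATS2. The AP-1 element, TGACTCA or on the other strand TGAGTCA, was in 4.95% of all promoters and in none of the 10.

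In control libraries the members differed widely in level. On the scale of CPM per kilobase of merged exons (GENCODE 29), YAP1 stood at 107 ± 3.82, above 98.7% of tested genes (SD, n = 3, as for all values with ± that follow). TEAD2 followed at 17.0 ± 0.60, then TEAD4 at 11.8 ± 0.665, TEAD1 at 11.4 ± 0.466 and CCN2 at 10.7 ± 1.01. The control libraries of TEAD4 and TEAD1 overlapped on this scale, as did those of TEAD1 and CCN2, so the order within these pairs was not larger than the replicate spread. CCN1 stood at 7.52 ± 0.433. AMOTL2 at 5.93 ± 0.544 and WWTR1 at 5.92 ± 0.369 also overlapped. LATS2 at 5.08 ± 0.0558 and ANKRD1 at 3.88 ± 0.171 were the lowest members. YAP1 transcripts thus exceeded those of its paralog in every library. Apart from YAP1, the members lay between the 50.6th and the 85.2nd percentile of tested genes.

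After SOX2 siRNA the paralogs within each component family moved in opposite directions. YAP1 and TEAD1, the TEAD gene with the highest CPM, fell, while WWTR1, TEAD2 and TEAD4 rose. Among the targets, ANKRD1 almost doubled and AMOTL2 rose, whereas CCN1, CCN2 and LATS2 did not pass the test. Of the 10 members, 5 were called higher and 2 lower by edgeR at an adjusted p of 0.05, where 14.8% of all tested genes were called higher and 13.4% lower (28.2% in either direction). For 9 of the 10 members every library of one group lay above every library of the other, against 41.8% of all tested genes. The members were chosen with earlier results of these data known, so these shares are a description only. The median log2 fold change over the members was 0.26, and that over all tested genes was -0.00085.

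YAP1 lies at chr11:102110461-102233423 on the plus strand (GRCh38, GENCODE 29). It measured 647, 693 and 681 CPM in control replicates 1 to 3 and 555, 578 and 578 CPM in SOX2 siRNA replicates 1 to 3. The lowest control library was above the highest SOX2 siRNA library, and the mean fell to 84.7% of control (log2 fold change -0.24, SE 0.0358; edgeR adjusted p = 6.7e-05). WWTR1 lies at chr3:149517235-149736714 on the minus strand. It measured 46.6, 50.1 and 52.8 CPM in control and 60.3, 66.8 and 69.7 CPM in SOX2 siRNA libraries. All SOX2 siRNA libraries were above all control libraries (log2 fold change 0.40, SE 0.0586; edgeR adjusted p = 0.00011).

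Expressed as shares of the summed level per kilobase, YAP1 made up 94.8% ± 0.207 of YAP1 plus WWTR1 in control and 92.1% ± 0.377 after SOX2 siRNA (SD over 3 libraries; p = 0.1 in the exact two-sided permutation test, the smallest value that 3 against 3 libraries allow). The WWTR1 share was 5.12%, 5.13% and 5.49% in control replicates 1 to 3 and 7.52%, 7.96% and 8.27% after SOX2 siRNA, without overlap. The summed level of both genes was 113 ± 4.11 CPM per kilobase in control and 98.4 ± 2.72 in SOX2 siRNA libraries (exact permutation p = 0.1, chosen after the values of the single genes were seen), so the increase of WWTR1 was smaller in transcripts than the decrease of YAP1.

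**Figure D1:**
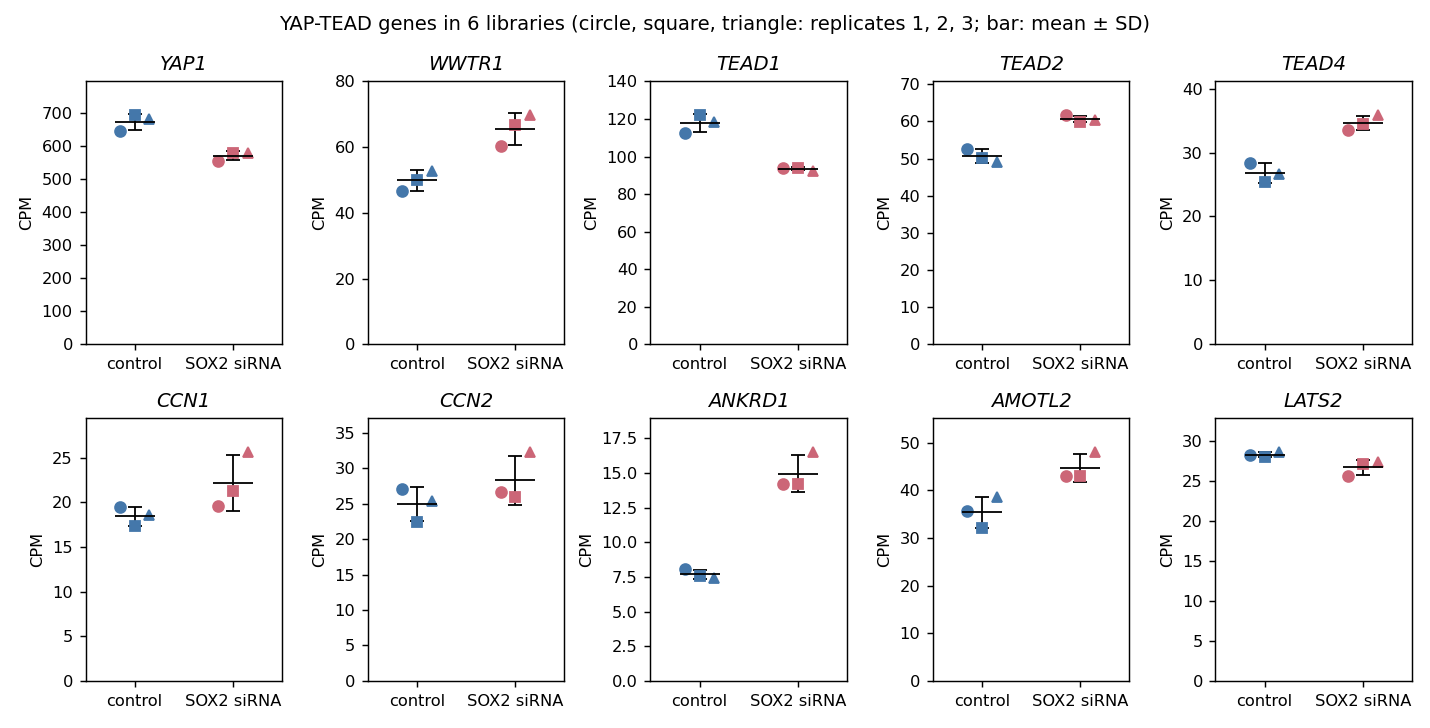
CPM of each member (vertical axes, linear from 0) by group, with replicates 1, 2 and 3 as circle, square and triangle and the mean ± SD (n = 3) as a black bar. ANKRD1 lies between 7.40 and 8.06 CPM in control and between 14.2 and 16.5 CPM in SOX2 siRNA libraries, while the CCN2 groups overlap.

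The TEAD genes encode the DNA-binding partners in the complex. TEAD1 (chr11:12674591-12944483, plus strand) measured 112, 122 and 119 CPM in control and 94.1, 94.1 and 92.6 CPM in SOX2 siRNA libraries. The SOX2 siRNA libraries lay close together and below all control libraries (log2 fold change -0.33, SE 0.0397; edgeR adjusted p = 6.06e-06). TEAD2 (chr19:49340595-49362457, minus strand) measured 52.7, 50.3 and 49.2 CPM in control and 61.6, 59.9 and 60.4 CPM in SOX2 siRNA libraries. These groups did not overlap either (log2 fold change 0.26, SE 0.0440; edgeR adjusted p = 0.000252). TEAD4 (chr12:2959330-3040673, plus strand) rose from 28.4, 25.3 and 26.7 CPM to 33.6, 34.5 and 35.8 CPM, without overlap (log2 fold change 0.37, SE 0.0555; edgeR adjusted p = 7.54e-05). TEAD3, the remaining paralog and not among the 10, was the least abundant in CPM, at 16.5 ± 1.11 in control and 19.7 ± 0.909 after SOX2 siRNA (log2 fold change 0.26, SE 0.0680; edgeR adjusted p = 0.00845).

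Per kilobase, TEAD1 took 25.1% ± 1.38 of the summed TEAD level in control and 17.8% ± 0.370 after SOX2 siRNA (p = 0.1 in the exact two-sided permutation test). The share of TEAD4 went from 25.8% ± 1.23 to 29.8% ± 0.742 and that of TEAD2 from 37.3% ± 0.606 to 39.8% ± 0.726 (exact permutation p = 0.1 for each). The TEAD3 share was 11.8% ± 0.690 and 12.6% ± 0.434, which overlapped between the groups (exact permutation p = 0.3). Without the division by length the TEAD3 shares did not overlap, at 7.78% ± 0.437 and 9.44% ± 0.393 (exact permutation p = 0.1). Per kilobase, the TEAD3 difference was 0.793 percentage points. When each library was left out it ranged from 0.475 (without control replicate 3) to 1.16 (without control replicate 2). The shares of TEAD1 and TEAD4 overlapped in control libraries, and in each SOX2 siRNA library TEAD4 held the larger one. The direction of the summed TEAD level depended on the scale: it was 45.7 ± 0.890 CPM per kilobase in control and 51.2 ± 0.599 in SOX2 siRNA libraries, but 212 ± 2.97 and 209 ± 1.06 CPM without the division by length, because TEAD1 has the longest exon model (10279 bases, against 2272 for TEAD4).

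**Figure D2:**
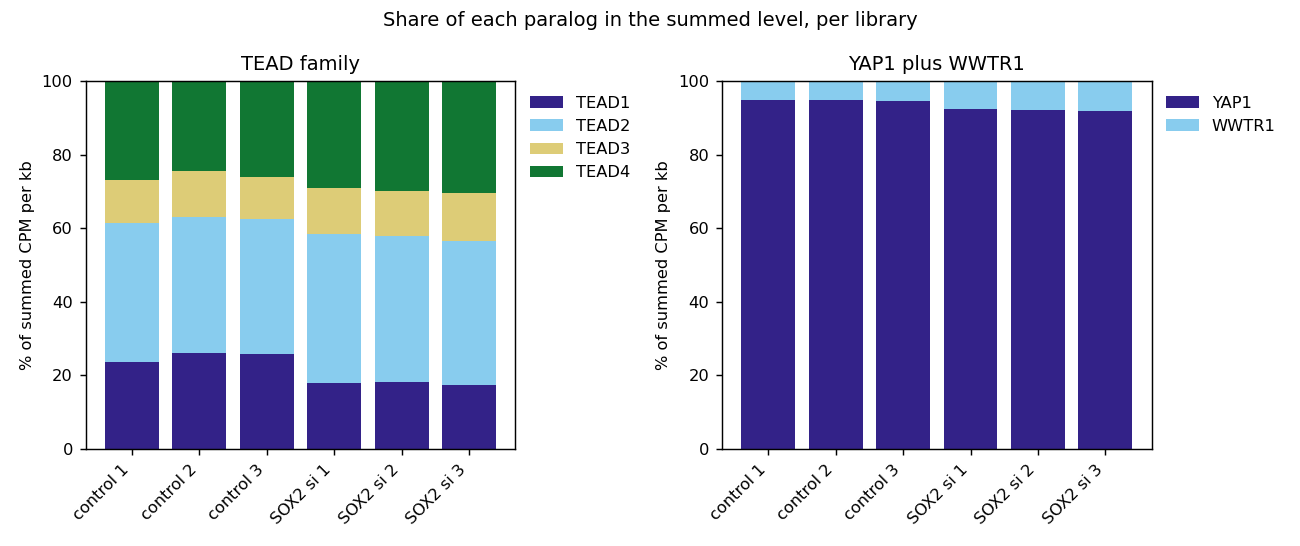
Share of each TEAD paralog (left) and of YAP1 and WWTR1 (right) in the summed CPM per kilobase, in percent, as 1 stacked bar per library from 0 to 100. The TEAD1 segment takes 23.5% to 26.0% in the control bars and 17.4% to 18.1% in the SOX2 siRNA bars.

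ANKRD1 (chr10:90912096-90921276, minus strand) encodes an ankyrin repeat protein and is listed here among the targets. It measured 8.06, 7.58 and 7.40 CPM in control and 14.2, 14.2 and 16.5 CPM in SOX2 siRNA libraries. These values rest on 190 to 266 counts per control library and 428 to 493 counts per SOX2 siRNA library. The groups were far apart, with a fold change of 1.94 (95% interval 1.71 to 2.2; log2 fold change 0.96, SE 0.0849; edgeR adjusted p = 1.45e-07). By size of the log2 fold change it ranked 701 of 17592 tested genes; the next largest change among the members, that of WWTR1, ranked 3230.

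AMOTL2 (chr3:134355874-134375479, minus strand) measured 35.6, 32.1 and 38.6 CPM in control and 43.0, 43.0 and 48.1 CPM in SOX2 siRNA libraries. Each SOX2 siRNA library was above each control library (log2 fold change 0.33, SE 0.0659; edgeR adjusted p = 0.00158). LATS2 (chr13:20973032-21061547, minus strand) measured 28.3, 28.0 and 28.6 CPM in control and 25.7, 27.2 and 27.4 CPM in SOX2 siRNA libraries. Its groups did not overlap, but the difference did not pass the test (log2 fold change -0.083, 95% interval -0.19 to 0.029; edgeR adjusted p = 0.278).

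CCN1 (chr1:85580761-85583962, plus strand) and CCN2 (chr6:131948176-131951373, minus strand) encode the secreted matricellular proteins formerly named CYR61 and CTGF. CCN1 measured 19.5, 17.4 and 18.6 CPM in control and 19.5, 21.2 and 25.6 CPM in SOX2 siRNA libraries. The highest control library and the lowest SOX2 siRNA library nearly coincided, and CCN1 did not pass the test (log2 fold change 0.26, 95% interval 0.056 to 0.46 before adjustment; edgeR adjusted p = 0.0568). Its adjusted p fell to 0.00553 without SOX2 siRNA replicate 1 and rose to 0.199 without SOX2 siRNA replicate 3, where the log2 fold change was 0.14. A fit that blocked on replicate number gave 0.0363 (edgeR), on the other side of the threshold.

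CCN2 measured 27.1, 22.5 and 25.4 CPM in control and 26.6, 26.0 and 32.3 CPM in SOX2 siRNA libraries, and its groups overlapped (log2 fold change 0.17, 95% interval -0.042 to 0.39; edgeR adjusted p = 0.224). The interval includes no change and increases of up to 1.31-fold. The 5 targets therefore covered a range from -0.083 (LATS2) to 0.96 (ANKRD1) in log2 fold change. The CCN2 promoter held 3 copies of the TEAD letters, and CCN2 did not pass the test. The ANKRD1 promoter, taken from its RefSeq start, held 2 copies, and ANKRD1 was the member that changed most. Whether the letters relate to these changes was not tested. SOX2 siRNA replicate 3 was the highest of the 6 libraries for CCN1, CCN2, ANKRD1 and AMOTL2, and also for the components WWTR1 and TEAD4. Without it the log2 fold change of ANKRD1 was 0.88 and that of AMOTL2 0.27 (edgeR adjusted p = 1.36e-07 and 0.0037), and that of CCN2 was 0.066.

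**Figure D3:**
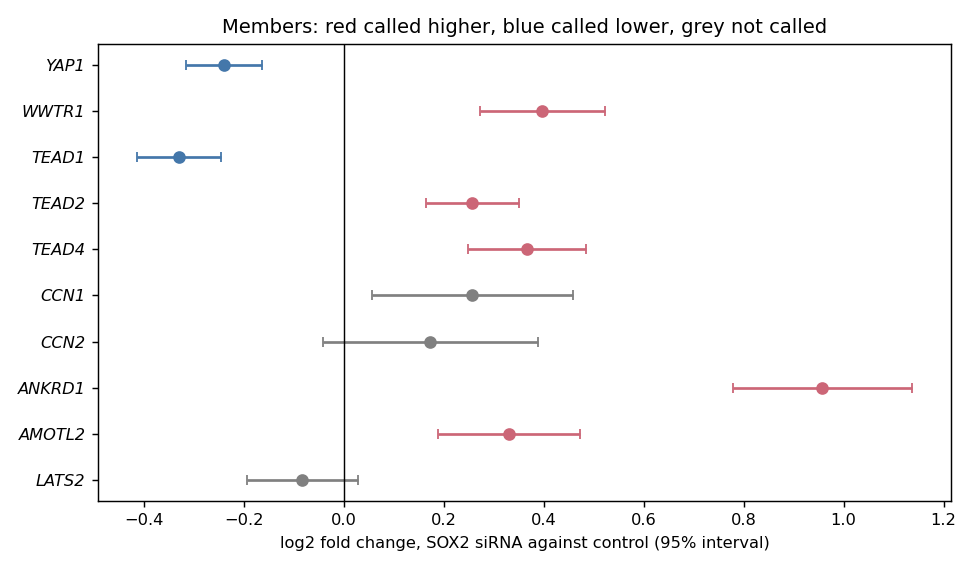
Log2 fold change of each member, SOX2 siRNA against control (horizontal axis), with its 95% interval; red points were called higher, blue lower and grey not called. YAP1 and TEAD1 lie below 0, ANKRD1 lies farthest to the right at 0.96, and CCN1, CCN2 and LATS2 are grey.

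The other genes of the pathway changed in both directions. The list of 24 further core Hippo genes had all 24 tested, 5 called higher and 8 lower, with a median log2 fold change of -0.037. The share called was 54.2%, beside 28.2% of all tested genes. The list was chosen with earlier results of these data known, and genes were not matched for level. The shares are therefore a description only. The angiomotin family, whose members bind YAP, split: AMOTL1 rose from 329 ± 8.25 to 455 ± 8.74 CPM (log2 fold change 0.47, edgeR adjusted p = 1.14e-08), while AMOT fell from 53.4 ± 1.18 to 36.9 ± 0.862 CPM (log2 fold change -0.53, edgeR adjusted p = 9.33e-08). With AMOTL2, 2 of the 3 angiomotin genes were higher and 1 lower. AMOTL1 was the most abundant of them, at 32.7 CPM per kilobase in control libraries.

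Among upstream regulators, DCHS1, a protocadherin that binds FAT4, rose from 56.1 ± 3.49 to 85.3 ± 3.69 CPM (log2 fold change 0.60, edgeR adjusted p = 5.99e-08). FAT4, named after its values were seen, fell from 45.9 ± 2.19 to 35.6 ± 0.580 CPM (log2 fold change -0.36, edgeR adjusted p = 2.3e-05). FRMD6, a FERM domain protein of the pathway, was higher with a log2 fold change of 0.48. WWC2, of the KIBRA family that assists LATS activation, and TAOK1, a kinase acting on the Hippo kinases, were lower with log2 fold changes of -0.37 and -0.30. LATS1, the paralog of LATS2, fell from 61.3 ± 3.60 to 55.1 ± 1.64 CPM (log2 fold change -0.15, edgeR adjusted p = 0.0246). The Hippo kinases STK3 and STK4, which phosphorylate LATS, were not called (log2 fold changes 0.027 and -0.094).

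The VGLL proteins bind TEADs in place of YAP. Of the 4 genes, 2 were tested and both were lower. VGLL4, which competes with YAP for TEAD binding, went from 93.2 ± 1.83 to 80.5 ± 2.10 CPM (log2 fold change -0.21, edgeR adjusted p = 0.000602). VGLL3 measured 6.39, 8.38 and 7.23 CPM in control and 2.48, 3.71 and 4.55 CPM in SOX2 siRNA libraries (log2 fold change -1.03, SE 0.195; edgeR adjusted p = 0.00336). VGLL1 had 0 counts in all 6 libraries and VGLL2 had 1 count in 1 library. The other CCN genes were near the floor: CCN3 had 4 to 7 counts per library, CCN4 had 4 to 15 counts, CCN5 had at most 1 count and CCN6 had 0 counts in all 6. CCN1 and CCN2 were thus the CCN transcripts detected above 1 CPM in these cells.

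Of 17 further genes of a commonly used YAP/TAZ target list, 16 were tested, 4 were called higher and 5 lower, and the median log2 fold change was 0.092. The share called was 56.2%, beside 28.2% of all tested genes, with the same limits as for the core list. CRIM1, a transmembrane protein that binds BMPs, and DOCK5, an exchange factor for Rac, were both higher with a log2 fold change of 0.71. CRIM1 went from 34.7 ± 0.809 to 57.1 ± 3.13 CPM and DOCK5 from 25.4 ± 0.174 to 41.7 ± 0.567 CPM (adjusted p = 8.19e-09 and 4.78e-09 in edgeR). PTPN14, a phosphatase that binds YAP and is also on the core list, was higher with a log2 fold change of 0.25. F3, which encodes tissue factor, fell from 13.6 ± 0.594 to 9.55 ± 0.111 CPM (log2 fold change -0.51, edgeR adjusted p = 5.36e-05). CCDC80, a secreted matrix protein, was lower with a log2 fold change of -0.18. The other genes called lower, named after their values were seen, were FOXF2, FJX1 and NUAK2, with log2 fold changes of -0.87, -0.31 and -0.25. FOXF2, a forkhead transcription factor, fell from 2.36 ± 0.351 to 1.29 ± 0.255 CPM (edgeR adjusted p = 0.00384). Together with the 5 targets among the members, 21 target genes were tested, and calls went in both directions.

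Partner and neighbouring programmes gave smaller counts. AP-1 factors often bind beside TEADs. Of 8 AP-1 genes, 2 were called (25%, near the 28.2% of all tested genes), both lower: ATF3 (log2 fold change -0.66, edgeR adjusted p = 0.000297) and JUN (log2 fold change -0.37, edgeR adjusted p = 0.00525). The median of the 8 was -0.34. Genes of the SRF and actin programme, another one that responds to adhesion and cell shape, were mostly not called. Of 12, CNN2 was the 1 called (log2 fold change -0.14, edgeR adjusted p = 0.0307), 11 were not called, and the median was 0.020. Values for VCL, FLNA and TPM1, all above 200 CPM, had log2 fold changes of -0.071, 0.053 and 0.026.

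**Figure D4:**
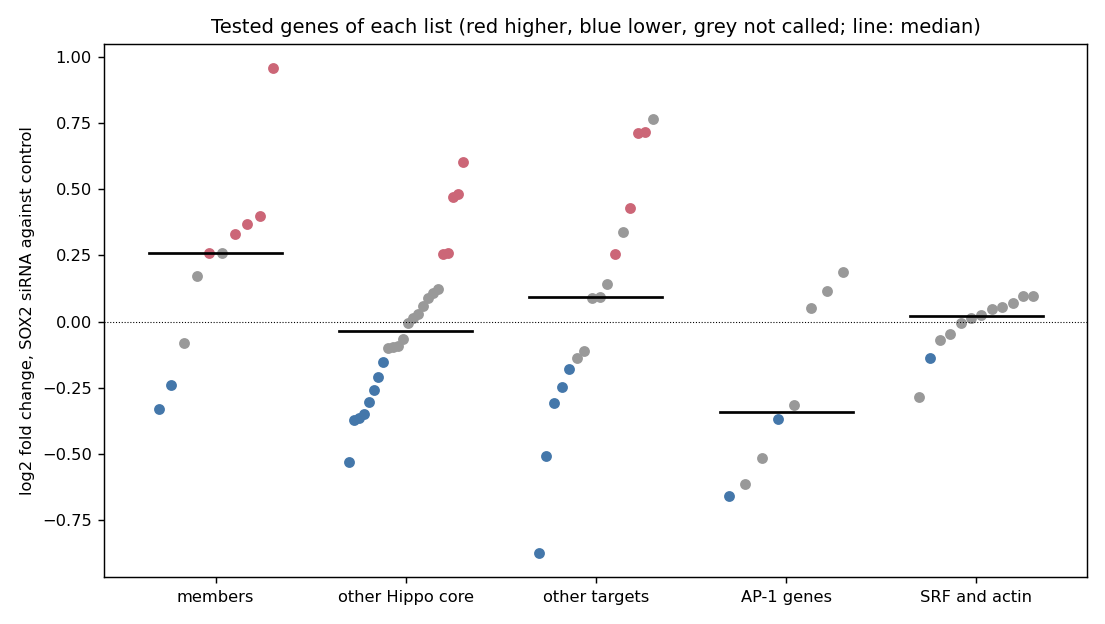
Log2 fold change (vertical axis) of the tested genes of each list, sorted within the list; red was called higher, blue lower and grey not called, and black lines are medians. The core list spreads from -0.53 to 0.60 with a median of -0.037, and the SRF and actin genes lie between -0.29 and 0.098.

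Markers of other cell types are given because YAP-TEAD genes are also active in mesenchymal, endothelial and epithelial cells; their part in the results was not tested. Of 4 endothelial markers, 4 were called lower (PECAM1, CDH5, VWF and TEK), with a summed level of 112 to 116 CPM in control and 83.3 to 86.7 CPM in SOX2 siRNA libraries. Of 5 fibroblast and smooth muscle markers, 3 were tested and PDGFRB was called higher (28.6 ± 0.999 to 106 ± 0.388 CPM). DES (9.33 ± 0.716 to 8.19 ± 0.545 CPM) and LUM (1.08 ± 0.307 to 1.55 ± 0.0957 CPM) were not called. The sum of the 5, mostly PDGFRB, was 37.5 to 40.8 CPM in control and 116 to 117 CPM in SOX2 siRNA libraries. The defining genes DCN and MYH11 had at most 10 counts in any library. Of 5 epithelial markers, KRT8 and KRT18 were called higher. EPCAM (2.09 ± 1.47 to 2.09 ± 1.46 CPM) and CDH1, which lay below 2 CPM, were tested and not called. KRT5 had at most 3 counts in any library. The sum of the 5, mostly KRT8 and KRT18, was 344 to 387 CPM in control and 476 to 512 CPM in SOX2 siRNA libraries. Of 5 blood markers, only CD14 was tested, and it was called higher at under 1 CPM, with a sum of 0.359 to 0.636 and 0.861 to 0.937 CPM, and HBB had 0 counts throughout. In bulk RNA, fewer cells with a transcript and less of it per cell cannot be told apart.

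Some exons of the members are shared with other annotated genes. Exons of YAP1, WWTR1, TEAD2 and CCN2 overlap those of AP000942.2, WWTR1-AS1, CD37 and AL133346.1 on the opposite strand, and those of AMOTL2 overlap the pseudogene RPL39P5 on the same strand. The use of strand in counting is not given in the sources used here. These partners had at most 16 counts in any library (WWTR1-AS1, in SOX2 siRNA replicate 2). Reads of these partners that were counted for a member cannot be told apart.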

How the data were processed

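The authors deposited whole-number counts per gene symbol, 1 column per library. The submitters' processing notes name bcl2fastq 2.20.0, STAR 2.7.3a, Salmon 0.14.1, DESeq2 1.28.1 and build GRCh38.p13; which tool made the counts is not given in the sources used here. Libraries were made from total RNA (Trizol) with a KAPA mRNA HyperPrep kit, per the labels' protocols. Columns were matched by the identifier in each sample's description.

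Genes were kept by filterByExpr (minimum count 10), scaled by TMM (factors 0.991 to 1.01) and tested with edgeR 4.0.16 (R 4.3.3; glmQLFit with robust=TRUE, glmQLFTest), p-values being adjusted by Benjamini-Hochberg over the 17592 genes tested and called at 0.05. CPM uses the scaled library sizes. Intervals are at the 95% level from the same fit. Paralog shares were tested by exact permutation of the 6 libraries, two-sided (scipy 1.17.1). Lengths, positions and exon overlaps came from GENCODE 29, which need not be the authors' annotation; promoters came from RefSeq. In data simulated for this comparison (17287 genes, 200 changed), edgeR recovered 46% of 1.25-fold, 62% of 1.5-fold, 70.2% of 2-fold and 98.0% of 4-fold changes; every recovered sign was right, and 11.2% of calls were false. Replicate pairs differed by more than counting noise (chi-square per degree of freedom 2.91 to 6.43).

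The members and gene lists were chosen with earlier results of these data known. Named genes were SOX2, the members, TEAD3, LATS1, the VGLL and CCN families, and up to 6 called genes of each other list by smallest p; FAT4, STK3, STK4, VCL, FLNA, TPM1 and the marker genes were named in addition, after their values were seen. One gene that this rule would name is not reported here. Alternatives were other scalings (DESeq2 1.42.0 size factors, upper quartile, total counts), other low-count filters, DESeq2's Wald test, limma-voom (limma 3.58.1), robust=FALSE, the replicate block and each library left out. No library was left out of the reported values.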

Additional observations from a re-analysis of the deposited data

How the results depend on the processing

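Across 150 values of the 10 members under 15 alternatives each, none lost a call and none reversed, and 5 gained one: CCN1 with no filter beyond 1 count, with at least 10 counts in every library, with the replicate block and without SOX2 siRNA replicate 1, and CCN2 with no filter (edgeR adjusted p = 0.0230). The cause was not tested. The replicate block gave 6 members called higher and 2 lower, and 5177 genes called in place of 4964; apart from CCN1 it changed no member's call. Same-numbered libraries showed little shared deviation (correlations of deviations across genes 0.0868, -0.0377 and -0.0311). With 3 libraries per group, these values cannot decide whether same-numbered libraries were handled together. SOX2 ranged from -2.32 to -2.25 when each library was left out, and the lowest number of genes called was 3760, without SOX2 siRNA replicate 2.

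Without the division by length, the share changed by -10.7 percentage points for TEAD1, 5.12 for TEAD2, 1.66 for TEAD3 and -3.41 for YAP1. With the division these changes were -7.29, 2.53, 0.793 and -2.67. The TEAD4 share changed by 3.93 points without the division and by 3.96 with it. With the longest protein-coding transcript as length, an alternative added after seeing the data, the YAP1 share changed by -3.62 points. In the simulated data, changes of up to 2-fold were recovered incompletely. Those data held a far smaller share of changed genes than the share called here, and recovery was not split by expression level. The recovered shares therefore cannot be read as those of the 10 members, although all their changes were within 2-fold.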
